A study of Rattus norvegicus with 6 samples.

Results

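Genes of the transforming growth factor beta (TGF-beta) and bone morphogenetic protein (BMP) pathways were examined in BRL-3A cells, an established rat liver cell line, after siRNA against Hnrnpa2b1. The 47 genes were chosen by symbol as ligands, receptors, SMAD proteins, antagonists and latency proteins, and each had a row among the 30957 genes of the table; of 2 rows named Tgfbr1 the one with counts was taken, since the other held 0 counts. RNA sequencing covered 3 libraries labelled si-hnrnpa2b1 and 3 labelled NC, a name the labels do not spell out; the labels do not say whether NC cells were given an siRNA. All 6 libraries carry the same other labels: BRL-3A cells, strain Sprague-Dawley, liver as the tissue, a disease state of high blood triglycerides and 48 h under age, the same length of time as the labels' protocol gives for transfection with a lipid reagent. The libraries held 13374412 to 15224108 counts. Nothing in the labels states that each came from a culture of its own; p-values therefore reflect the spread among these 6 samples only, and that spread may be technical.

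Ligands of this family bind pairs of type I and type II receptor kinases at the cell surface. The type I receptor then phosphorylates receptor-regulated SMADs, which join SMAD4 and enter the nucleus. TGF-beta and activin receptors act mainly through SMAD2 and SMAD3, BMP receptors through SMAD1, SMAD5 and SMAD9. TGF-beta is secreted in a latent form tethered to the matrix by latent TGF-beta binding proteins, and BMPs are held back by secreted antagonists such as noggin. In the liver the TGF-beta branch is known for its part in fibrosis and growth arrest, and BMP6 for its part in the control of iron uptake. Hnrnpa2b1 encodes an RNA-binding protein with roles in the splicing, stability and movement of RNA, and the comparison asks which pathway genes differ when its mRNA is lowered.

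Levels are given as CPM, the count scaled by the library total and by a trimmed mean of M-values (TMM) factor, and log2 fold changes ± SE compare si-hnrnpa2b1 with NC libraries, positive where si-hnrnpa2b1 is higher. A gene rose, fell or changed where edgeR's quasi-likelihood test gave an adjusted p below 0.05 over 12261 tested genes. Hnrnpa2b1 had 662, 584 and 573 CPM in si-hnrnpa2b1 libraries, against 953, 1064 and 1025 CPM in NC libraries, a fall of the mRNA with much of it remaining (log2 -0.74 ± 0.06, edgeR adjusted p = 2.3e-06). The liver labels were set against marker genes. Albumin, transthyretin and Hnf4a, which define hepatocytes, had 0 counts in all libraries, and 10 of 12 hepatocyte markers were too low to test, while G6pc stood at 65.1 FPKM. The collagen gene Col1a1 reached 2017 FPKM, Vim 738 and Acta2 112 FPKM, and the summed level of 13 stellate cell and fibroblast markers was 3305 to 3467 FPKM in si-hnrnpa2b1 libraries and 3250 to 3377 FPKM in NC libraries, most of it from Col1a1, Vim and Col3a1. Of the same 13 markers Col1a2 and Lrat had 0 counts in all libraries, Thy1 had 1 count and Reln 5 counts in all, and Lum and Pdgfra were below 1 FPKM. Of the 9 of these markers that were tested, Des and Acta2 rose (log2 0.30 and 0.27, edgeR adjusted p = 0.014 and 0.0049). The other 7 did not pass, so that 22.2% changed, beside 5.30% of all tested genes. Fold changes were above 0 in 5 and below 0 in 4. The log2 values were -0.01 for Col1a1, -0.03 for Col3a1 and 0.13 for Vim (edgeR adjusted p = 0.97, 0.81 and 0.091). The part of these markers in the pathway genes' values was not tested. In bulk RNA, fewer cells of a type and less RNA per cell cannot be told apart.

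Small changes in both directions were found among the pathway genes. Of the 47 genes 42 passed the filter on low counts. Bmp4, Nog, Fstl1 and Smurf2 rose, Acvr1b, Skil, Ltbp2 and Ltbp3 fell, and 34 did not pass the test. The 8 changed genes were 19.0% of those tested, beside 5.30% of all tested genes (2.36% rose and 2.94% fell). In 19 of the 42 genes (45.2%) the values of the groups did not overlap, beside 23.4% of all tested genes. The tested pathway genes were also more abundant, with a median of 81.9 CPM beside 26.1 CPM over all tested genes. These genes, and the further lists below, were chosen with earlier results of these data known. The part of abundance and of that choice in such shares was not tested. The changes were small: log2 fold changes of the tested genes ran from -0.45 to 0.53 with a median of -0.04, beside a median of -0.00 over all tested genes. The number that rose was 1 without si-hnrnpa2b1 replicate 2, si-hnrnpa2b1 replicate 3 or NC replicate 1, and 2 without si-hnrnpa2b1 replicate 1 or NC replicate 3. By limma on log2(FPKM + 1) and log2(FPKM + 0.1), 1 gene rose and 3 fell.

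**Figure D1:**
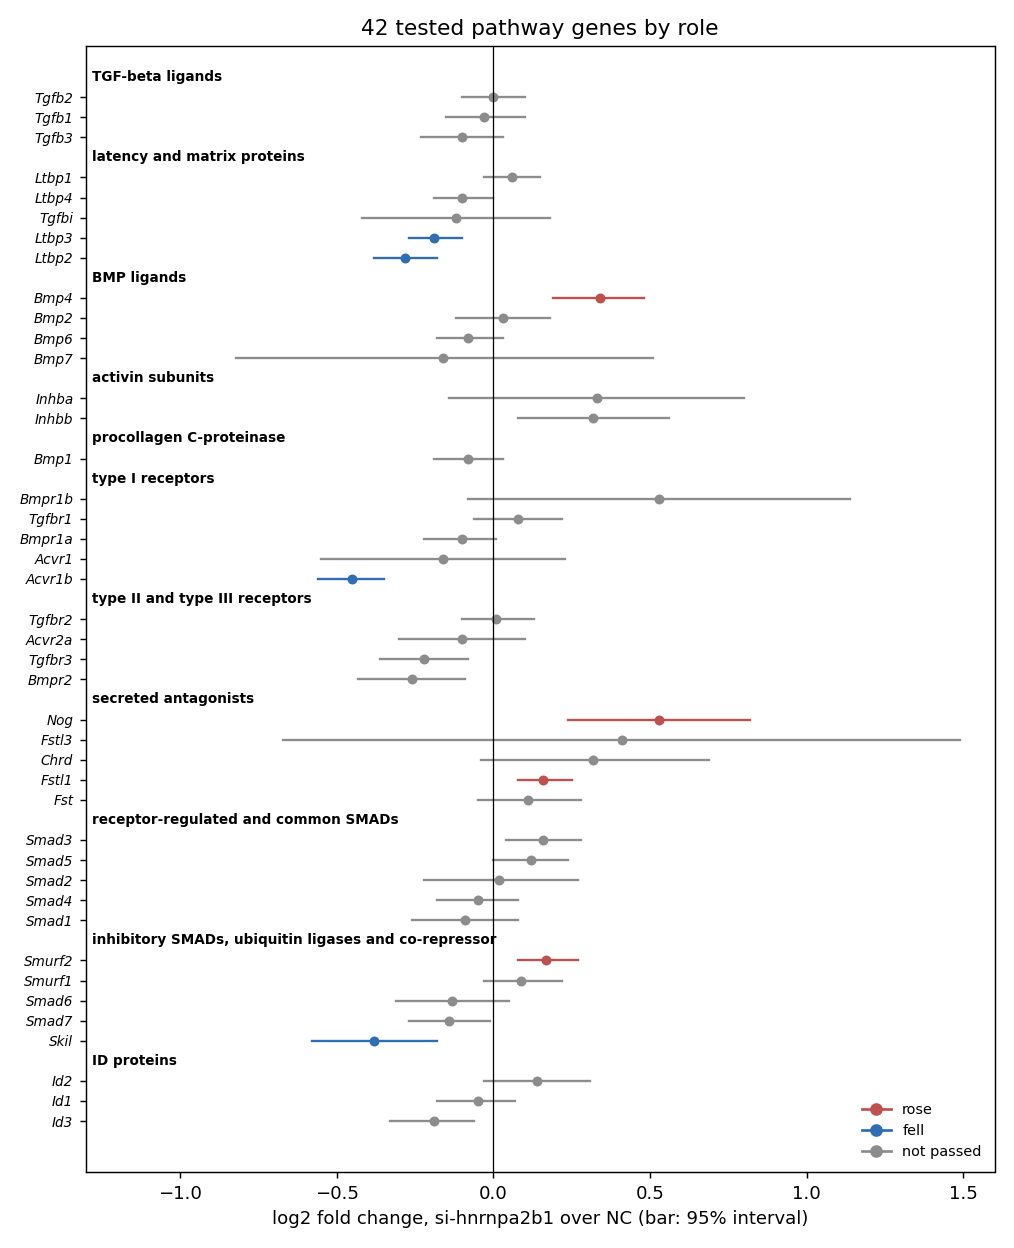
Log2 fold change of si-hnrnpa2b1 over NC (horizontal axis) for the 42 tested pathway genes, grouped by role, with 95% intervals of the edgeR fit that are not adjusted for the number of genes. Red genes rose, blue genes fell and grey genes did not pass; the values run from -0.45 for Acvr1b to 0.53 for Nog and Bmpr1b, the last with an interval that spans 0.

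The largest fall was in a receptor. Acvr1b encodes ALK4, the type I receptor through which activins signal to SMAD2 and SMAD3 (ENSRNOG00000006934, chromosome 7, 142817157 to 142860572 in Rnor_6.0). It had 119, 128 and 123 CPM in si-hnrnpa2b1 libraries, against 165, 173 and 166 CPM in NC libraries. Every si-hnrnpa2b1 value lay below every NC value, and the groups were far apart compared with the spread within each. The mRNA fell by 26.8% (log2 -0.45 ± 0.05, edgeR adjusted p = 5.8e-05), and it passed the test under all 16 alternative settings, with adjusted p up to 0.015.

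The type I receptor of TGF-beta itself, Tgfbr1, had 49.0, 51.3 and 47.7 CPM in si-hnrnpa2b1 libraries and 47.7, 47.3 and 45.0 CPM in NC libraries (log2 0.08 ± 0.06, 95% interval -0.06 to 0.22, edgeR adjusted p = 0.57). Bmpr1a, a type I receptor for BMPs and by FPKM the most abundant type I receptor of the list, had 128, 144 and 132 CPM in si-hnrnpa2b1 libraries, against 147, 138 and 149 CPM in NC libraries. Its groups overlapped (log2 -0.10 ± 0.06, edgeR adjusted p = 0.35). Acvr1, which encodes the BMP receptor ALK2, had 24.9, 50.4 and 54.8 CPM in si-hnrnpa2b1 libraries, against 47.8, 47.8 and 49.7 CPM in NC libraries. A single library, si-hnrnpa2b1 replicate 1, was low; the others lay above the NC values (log2 -0.16 ± 0.18, edgeR adjusted p = 0.72; 0.12 on the log2 scale without that library, edgeR adjusted p = 0.47). Bmpr1b was scarce, with 1.76 to 3.53 CPM in si-hnrnpa2b1 and 1.69 to 2.12 CPM in NC libraries (edgeR adjusted p = 0.36). Acvrl1, the endothelial type I receptor ALK1, held 21 counts over all 6 libraries and was not tested.

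Among type II and type III receptors 0 of 4 tested passed by edgeR and 1 passed by DESeq2. By edgeR 2 of the 4 had an unadjusted p below 0.05, as did 18.3% of all tested genes; the lowest adjusted p belonged to Tgfbr3 and Bmpr2. Tgfbr3 encodes betaglycan, a co-receptor that presents TGF-beta2 to the signalling receptors. It had 50.2, 56.5 and 51.9 CPM in si-hnrnpa2b1 libraries, against 61.8, 59.1 and 63.9 CPM in NC libraries (log2 -0.22 ± 0.07, edgeR adjusted p = 0.068). Bmpr2, the type II receptor of BMPs, had 77.4, 97.6 and 93.8 CPM in si-hnrnpa2b1 libraries, against 105, 116 and 101 CPM in NC libraries (log2 -0.26 ± 0.08, edgeR adjusted p = 0.071; 0.044 by DESeq2). In both genes the si-hnrnpa2b1 values all lay below the NC values. The type II receptor of TGF-beta, Tgfbr2, was the most abundant receptor of the list at 70.0 FPKM and had 178, 207 and 203 CPM in si-hnrnpa2b1 libraries, against 200, 191 and 191 CPM in NC libraries (log2 0.01 ± 0.06, 95% interval -0.10 to 0.13, edgeR adjusted p = 0.94). Of the activin type II receptors, Acvr2a had -0.10 ± 0.09 on the log2 scale (edgeR adjusted p = 0.65) and Acvr2b, with 53 counts in all, was not tested.

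Of the 3 TGF-beta ligands 0 passed by edgeR or DESeq2, and 0 had an unadjusted p below 0.05 by edgeR. Of all tested genes 5.30% passed by edgeR and 18.3% had an unadjusted p below 0.05. Tgfb1, whose mean FPKM was slightly above that of Tgfb3 with overlapping values, had 147, 128 and 135 CPM in si-hnrnpa2b1 libraries, against 138, 147 and 133 CPM in NC libraries (log2 -0.03 ± 0.06, 95% interval -0.15 to 0.10, edgeR adjusted p = 0.86). For Tgfb2 the mean was 189 CPM in each group (95% interval of the log2 fold change -0.10 to 0.10, edgeR adjusted p = 1.00). Tgfb3 gave -0.10 ± 0.06 on the log2 scale (95% interval -0.23 to 0.03, edgeR adjusted p = 0.40). The groups overlapped in all 3 genes, and were without overlap in 23.4% of all tested genes.

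Of the genes of the latent TGF-beta binding protein family, Ltbp2 and Ltbp3 fell, while Ltbp1 and Ltbp4 did not pass. Ltbp2, a fibrillin-binding member of the latent TGF-beta binding protein family that is itself not known to bind latent TGF-beta (ENSRNOG00000012094, chromosome 6, 108500112 to 108596569), had 682, 760 and 706 CPM in si-hnrnpa2b1 libraries, against 878, 861 and 866 CPM in NC libraries. The NC values were close together and all above the si-hnrnpa2b1 values; the mRNA fell by 17.6% (log2 -0.28 ± 0.05, edgeR adjusted p = 0.0018). Ltbp3, which does bind latent TGF-beta (ENSRNOG00000020813, chromosome 1, 221099998 to 221116096), had 324, 316 and 314 CPM in si-hnrnpa2b1 libraries, against 355, 366 and 363 CPM in NC libraries. It fell by 12% (log2 -0.19 ± 0.04, edgeR adjusted p = 0.015), with no overlap between groups. That call was lost without si-hnrnpa2b1 replicate 2, si-hnrnpa2b1 replicate 3 or NC replicate 3 (edgeR adjusted p = 0.078, 0.091 and 0.052). The Ltbp3 model overlaps that of another gene, so reads of the overlap may belong to either gene. Ltbp4 had 307 to 325 CPM in si-hnrnpa2b1 and 327 to 352 CPM in NC libraries (log2 -0.10 ± 0.04, edgeR adjusted p = 0.27), and Ltbp1 had 295 to 303 CPM in si-hnrnpa2b1 and 286 to 290 CPM in NC libraries (log2 0.06 ± 0.04, edgeR adjusted p = 0.49). Tgfbi, a matrix protein named for its induction by TGF-beta, was low at 3.65 FPKM and gave -0.12 ± 0.14 (edgeR adjusted p = 0.72).

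Among BMP ligands, Bmp4 rose (ENSRNOG00000009694, chromosome 15, 20776054 to 20822740). It had 111, 94.4 and 94.7 CPM in si-hnrnpa2b1 libraries, against 80.5, 77.1 and 80.0 CPM in NC libraries. The NC values were nearly equal and replicate 1 was the highest of the si-hnrnpa2b1 libraries; the increase was 26.2% (log2 0.34 ± 0.07, edgeR adjusted p = 0.0066). The other BMP ligands did not pass. Bmp6, at 102 FPKM the most abundant ligand of the list, had 156, 144 and 156 CPM in si-hnrnpa2b1 libraries, against 159, 161 and 159 CPM in NC libraries (log2 -0.08 ± 0.05, edgeR adjusted p = 0.44). Bmp2 had 83.1 to 90.0 CPM in si-hnrnpa2b1 and 79.0 to 96.3 CPM in NC libraries (log2 0.03 ± 0.07, edgeR adjusted p = 0.89). Bmp7 was below 3 CPM in every library (edgeR adjusted p = 0.86), and Bmp3 had 4 counts, all in NC replicate 1.

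Activin subunits had higher means after siRNA without passing. Inhbb, the beta B subunit, had 28.3, 23.1 and 22.0 CPM in si-hnrnpa2b1 libraries, against 21.4, 20.2 and 17.4 CPM in NC libraries (log2 0.32 ± 0.11, edgeR adjusted p = 0.13). Inhba, the beta A subunit, had 9.15, 12.1 and 10.5 CPM in si-hnrnpa2b1 libraries, against 5.57, 12.8 and 7.07 CPM in NC libraries. The highest value of all was that of NC replicate 2, and without that library Inhba passed (log2 0.74, edgeR adjusted p = 0.019; with it 0.33 ± 0.22, edgeR adjusted p = 0.47). Bmp1, which despite its name is a metalloprotease that trims procollagens and cleaves chordin, had 129, 121 and 127 CPM in si-hnrnpa2b1 libraries, against 129, 135 and 134 CPM in NC libraries (log2 -0.08 ± 0.05, edgeR adjusted p = 0.44).

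Of the secreted antagonists, Nog and Fstl1 rose, and the other 3 that were tested did not pass. All 5 had fold changes above 0, as did 6081 of the 12261 tested genes. Nog encodes noggin, which binds BMPs and keeps them from their receptors (ENSRNOG00000023683, chromosome 10, 76811759 to 76813386). It had 10.3, 11.7 and 11.7 CPM in si-hnrnpa2b1 libraries, against 7.34, 7.03 and 8.95 CPM in NC libraries, with no overlap (log2 0.53 ± 0.14, edgeR adjusted p = 0.032). Its level was low, and the call was lost without any library except NC replicate 3 (edgeR adjusted p = 0.0501 without si-hnrnpa2b1 replicate 1, and 0.12, 0.11, 0.11 and 0.096 without si-hnrnpa2b1 replicate 2, si-hnrnpa2b1 replicate 3, NC replicate 1 and NC replicate 2) by DESeq2 (adjusted p = 0.062) and by limma on FPKM (0.064 to 0.14).

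Fstl1, a secreted follistatin-like glycoprotein (ENSRNOG00000002746, chromosome 11, 65782567 to 65845418), was the most abundant gene of the list at 260 FPKM. It had 846, 875 and 855 CPM in si-hnrnpa2b1 libraries, against 761, 780 and 762 CPM in NC libraries. The groups were separate and the spread within each was narrow; the increase was 11.9% (log2 0.16 ± 0.04, edgeR adjusted p = 0.029). The call was lost without si-hnrnpa2b1 replicate 2, si-hnrnpa2b1 replicate 3, NC replicate 1 or NC replicate 3 (edgeR adjusted p = 0.12, 0.11, 0.096 and 0.099) and by limma on FPKM (adjusted p = 0.065 to 0.089). Fst, follistatin, which binds activins, had 35.6, 38.5 and 40.0 CPM in si-hnrnpa2b1 libraries, against 33.4, 37.7 and 34.5 CPM in NC libraries (log2 0.11 ± 0.08, edgeR adjusted p = 0.48). The BMP antagonist chordin, Chrd, gave 0.32 ± 0.17 (edgeR adjusted p = 0.35), and Fstl3, with 48 counts in all, 0.41 ± 0.51 (edgeR adjusted p = 0.75). Grem1, which encodes the BMP antagonist gremlin, had 0 counts in all libraries; a count of 0 allows at most 3 counts, or 0.197 to 0.224 CPM depending on the library, a limit for counting error only.

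**Figure D2:**
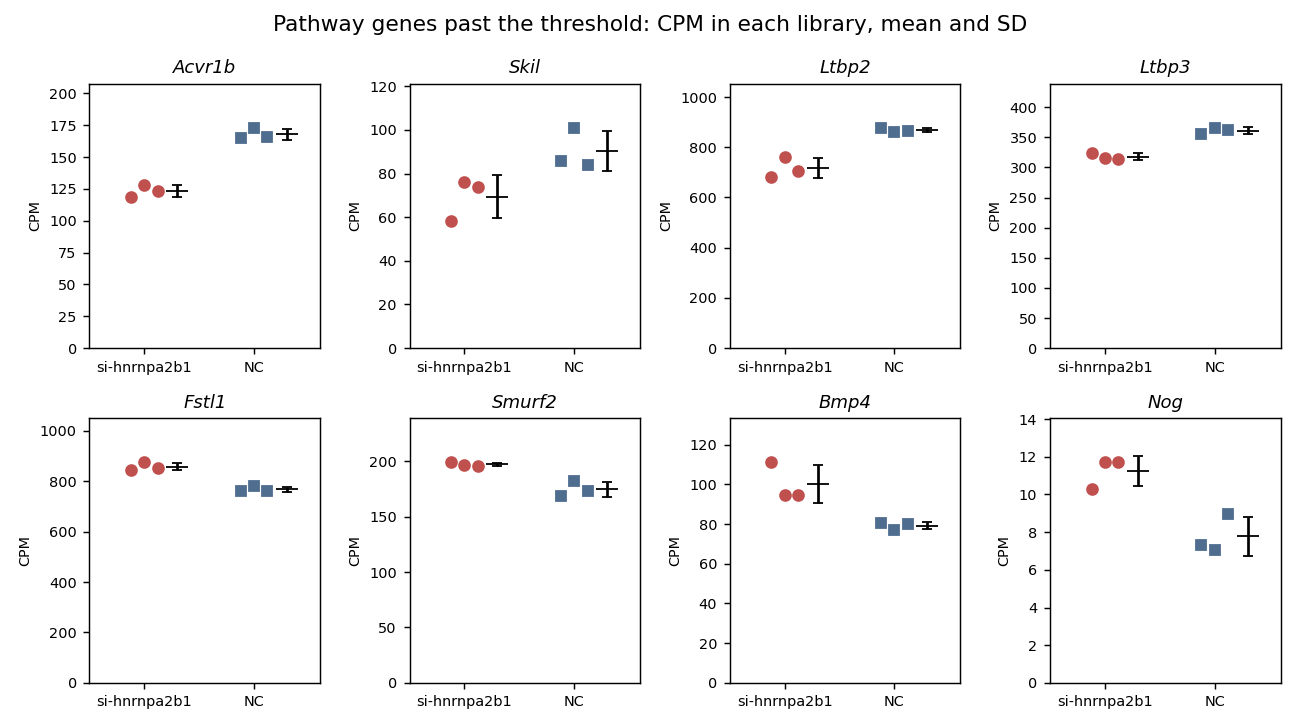
CPM (vertical axes, from 0) of the 8 pathway genes past the threshold, one panel each, with si-hnrnpa2b1 libraries as red circles, NC libraries as blue squares and black bars for mean ± SD (n = 3 each). In each panel the values of one group lie entirely above those of the other, as for Acvr1b with 119 to 128 CPM in si-hnrnpa2b1 and 165 to 173 CPM in NC libraries.

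Of the signal-carrying SMADs 0 of 5 tested passed by edgeR or DESeq2, and 2 had an unadjusted p below 0.05 by edgeR, beside 18.3% of all tested genes. Smad3, which carries TGF-beta and activin signals, came closest with 84.0, 89.8 and 89.2 CPM in si-hnrnpa2b1 libraries, against 78.9, 78.6 and 77.3 CPM in NC libraries (log2 0.16 ± 0.06, edgeR adjusted p = 0.12). Its partner Smad2 varied within both groups, with 41.3, 40.1 and 52.9 CPM in si-hnrnpa2b1 libraries and 40.6, 38.7 and 52.7 CPM in NC libraries (log2 0.02 ± 0.12, edgeR adjusted p = 0.96). Replicate 3 was the high library on each side. Smad4, the shared partner, whose FPKM values overlapped those of Smad5, had 81.4, 90.7 and 90.6 CPM in si-hnrnpa2b1 libraries, against 87.6, 94.9 and 90.1 CPM in NC libraries (log2 -0.05 ± 0.06, edgeR adjusted p = 0.72). Of the BMP-responsive SMADs, Smad5 gave 0.12 ± 0.06 with separate groups (edgeR adjusted p = 0.27), Smad1 gave -0.09 ± 0.08 with overlapping groups (edgeR adjusted p = 0.61), and Smad9 had 0 counts in every library.

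Among inhibitors inside the cell, Smurf2 rose and Skil fell. Smurf2 encodes a ubiquitin ligase that targets SMADs and, with SMAD7, the TGF-beta receptors (ENSRNOG00000014623, chromosome 10, 95018059 to 95062987). It had 199, 197 and 196 CPM in si-hnrnpa2b1 libraries, against 169, 182 and 173 CPM in NC libraries (log2 0.17 ± 0.05, edgeR adjusted p = 0.035). The si-hnrnpa2b1 values were almost equal and above all NC values; the call was lost without any library except NC replicate 2 (edgeR adjusted p = 0.10, 0.11, 0.11, 0.14 and 0.10 without si-hnrnpa2b1 replicates 1, 2 and 3 and NC replicates 1 and 3) and by limma on FPKM (adjusted p = 0.088 to 0.091). Its relative Smurf1 gave 0.09 ± 0.06 (edgeR adjusted p = 0.45). Skil encodes SnoN, a co-repressor that binds SMADs and whose gene is itself induced by TGF-beta (ENSRNOG00000009899, chromosome 2, 115866701 to 115891097). It had 58.1, 76.1 and 74.0 CPM in si-hnrnpa2b1 libraries, against 85.7, 101 and 84.1 CPM in NC libraries, a fall of 23.1% with wide spread and no overlap (log2 -0.38 ± 0.09, edgeR adjusted p = 0.025). The lowest library was si-hnrnpa2b1 replicate 1 and the highest NC replicate 2; without them in turn the fold change was -0.27 and -0.29 and the call was lost (edgeR adjusted p = 0.099 and 0.084). It was lost by limma on FPKM too (adjusted p = 0.11 to 0.23). The inhibitory SMADs gave -0.14 ± 0.06 for Smad7 and -0.13 ± 0.08 for Smad6 (edgeR adjusted p = 0.23 and 0.45).

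The ID proteins, inhibitors of helix-loop-helix transcription factors whose genes are classical BMP targets, gave 0 of 3 past the test by edgeR or DESeq2, and 1 had an unadjusted p below 0.05 by edgeR, beside 18.3% of all tested genes. Id3, by FPKM second only to Fstl1 in the list, had 122, 130 and 130 CPM in si-hnrnpa2b1 libraries, against 154, 130 and 152 CPM in NC libraries. NC replicate 2 lay at the si-hnrnpa2b1 level, and without it Id3 passed (log2 -0.27, edgeR adjusted p = 0.0047; with it -0.19 ± 0.06, edgeR adjusted p = 0.094). Id1 had 76.1 to 83.7 CPM in si-hnrnpa2b1 and 82.0 to 82.7 CPM in NC libraries (log2 -0.05 ± 0.06, edgeR adjusted p = 0.69), and Id2 had 29.6 to 33.6 CPM in si-hnrnpa2b1 and 27.9 to 30.3 CPM in NC libraries (log2 0.14 ± 0.08, edgeR adjusted p = 0.39).

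Levels between genes can be compared per length only, as FPKM. In this paragraph ± after a mean over 6 libraries is the SD over these 6, which includes any difference between the groups. Averaged over 6 libraries, the list spanned from Fstl1 at 260 ± 16.1 FPKM to 2 genes with 0 counts. Id3 (136 ± 14.2 FPKM) and Bmp6 (102 ± 4.17 FPKM) came next, and neither of these overlapped its neighbours in the order over the libraries. From Id1 (84.4 FPKM) down through Ltbp2, Ltbp3, Tgfbr2, Tgfb1, Tgfb3 and Ltbp4 (57.2 FPKM), each gene overlapped the next. The order of neighbours in this stretch is therefore not resolved with both groups pooled. Within a group some neighbours were separate. In si-hnrnpa2b1 libraries Id1 (79.7 to 86.5 FPKM) lay above Ltbp2 (66.9 to 75.5 FPKM). In NC libraries Ltbp3 (81.5 to 83.4 FPKM) lay above Tgfbr2 (67.8 to 72.3 FPKM). Over all 6 libraries, genes further apart could be separate: Id1 (79.7 to 87 FPKM) lay wholly above Tgfbr2 (63.4 to 74.4 FPKM) and Ltbp4 (53 to 61.7 FPKM). Tgfb1 and Tgfb3 stood at 64.4 ± 3.18 and 62.3 ± 4.89 FPKM and Tgfb2 lower at 39.1 ± 0.828 FPKM. The type I receptors that carry TGF-beta and activin signals differed from each other, with Acvr1b at 27.2 ± 1.16 FPKM in si-hnrnpa2b1 and 37.3 ± 0.594 FPKM in NC libraries, and Tgfbr1 at 7.96 ± 0.301 FPKM in si-hnrnpa2b1 and 7.55 ± 0.227 FPKM in NC libraries (SD, n = 3 each). Summed over the 6 secreted antagonists, the level was 309, 325 and 320 FPKM in si-hnrnpa2b1 libraries, against 282, 286 and 285 FPKM in NC libraries, most of it from Fstl1.

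**Figure D3:**
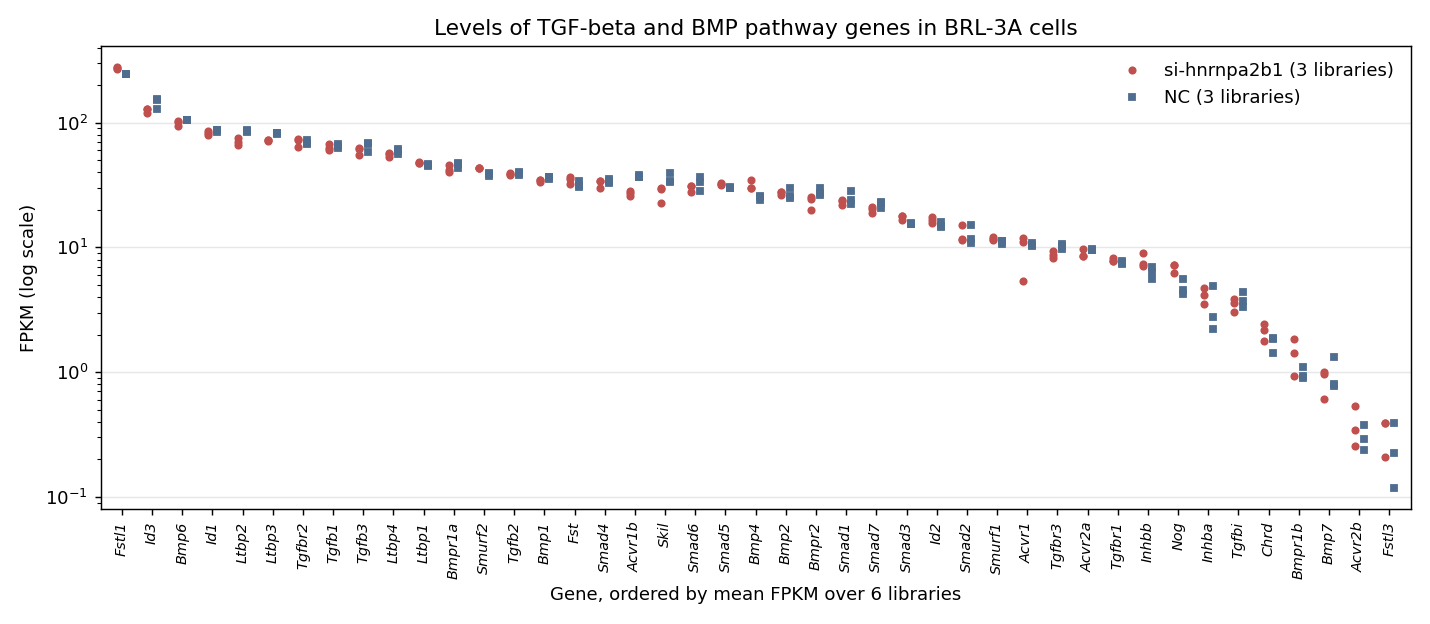
FPKM on a log axis of the 43 pathway genes with a mean of at least 0.2 FPKM, in order of their mean, with si-hnrnpa2b1 libraries as red circles and NC libraries as blue squares. Fstl1 stands highest at 260 FPKM, and the low point of Acvr1 is si-hnrnpa2b1 replicate 1 at 5.34 FPKM.

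Promoter sequences are shown for the 3 pathway genes that fell most and the 2 that rose most among those past the threshold, so that the SMAD-binding letters in front of them can be read. They are the 250 bases before the annotated start, 5′ to 3′ on the strand of the gene, from RefSeq on build GRCr8, whose positions differ from those of Rnor_6.0 above. Capitals mark CAGAC, the core bound by SMAD3 and SMAD4, read on either strand (GTCTG), and GGCGCC, a GC-rich BMP-response motif known from the mouse Id1 gene that reads the same on both strands; the 2 motifs do not overlap here.
Acvr1b (chr7:134164751-134165000, plus strand): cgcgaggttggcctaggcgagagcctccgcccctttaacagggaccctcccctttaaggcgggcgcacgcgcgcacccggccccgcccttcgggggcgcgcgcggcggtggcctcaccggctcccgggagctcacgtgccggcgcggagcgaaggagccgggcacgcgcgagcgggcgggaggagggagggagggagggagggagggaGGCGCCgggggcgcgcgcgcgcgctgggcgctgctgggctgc
Skil (chr2:114203573-114203822, minus strand): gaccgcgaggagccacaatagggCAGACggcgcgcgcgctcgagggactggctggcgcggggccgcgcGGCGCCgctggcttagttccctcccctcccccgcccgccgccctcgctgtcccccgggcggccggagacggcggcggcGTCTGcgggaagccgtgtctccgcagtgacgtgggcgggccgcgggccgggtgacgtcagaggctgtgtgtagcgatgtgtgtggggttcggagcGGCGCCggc
Ltbp2 (chr6:110257299-110257548, minus strand): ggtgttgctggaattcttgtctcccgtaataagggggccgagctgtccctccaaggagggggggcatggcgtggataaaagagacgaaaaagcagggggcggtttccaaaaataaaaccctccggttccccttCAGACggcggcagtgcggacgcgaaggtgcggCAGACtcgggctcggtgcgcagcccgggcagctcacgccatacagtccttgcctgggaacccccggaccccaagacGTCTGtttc
Bmp4 (chr15:22101934-22102183, minus strand): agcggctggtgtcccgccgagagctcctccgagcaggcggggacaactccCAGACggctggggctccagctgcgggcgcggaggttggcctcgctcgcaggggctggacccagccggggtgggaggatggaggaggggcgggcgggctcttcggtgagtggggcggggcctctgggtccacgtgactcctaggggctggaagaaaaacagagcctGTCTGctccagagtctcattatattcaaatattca
Nog (chr10:74627502-74627751, minus strand): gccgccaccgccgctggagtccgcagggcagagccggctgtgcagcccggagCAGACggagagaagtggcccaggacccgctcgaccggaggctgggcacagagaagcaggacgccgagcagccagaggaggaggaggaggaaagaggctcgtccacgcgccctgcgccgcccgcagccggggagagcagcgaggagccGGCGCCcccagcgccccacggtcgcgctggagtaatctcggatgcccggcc
Skil held 2 copies of each motif, Ltbp2 3 of CAGAC, Bmp4 2 of CAGAC, Nog 1 of each and Acvr1b 1 of GGCGCC. The promoters of Ltbp3, Fstl1 and Smurf2 held neither in this window. Of the 47 genes 38 matched a promoter by symbol; 7 of these (18.4%) held CAGAC, beside 42.9% of 33469 promoters of the same length, and 12 (31.6%) held GGCGCC, beside 8.69%. The pathway promoters had a median G+C content of 66.4%, beside 51.2% over the table, and the part of base composition in these shares was not tested. A match is a description of letters, not of a bound site.

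Among further components of the pathway, listed in the same way, the share of changed genes was near that of all tested genes. Of 77 matched components 47 were tested, 1 rose, 1 fell and 45 did not pass, which is 4.26% beside the 5.30% of all tested genes. Fbn2, a fibrillin of the microfibrils that anchor latent TGF-beta and BMPs, rose, with 100, 112 and 104 CPM in si-hnrnpa2b1 libraries, against 78.3, 68.7 and 81.1 CPM in NC libraries (log2 0.47 ± 0.07, edgeR adjusted p = 6.0e-04). Xiap, an inhibitor of apoptosis that also links BMP receptors to the kinase TAK1, fell, with 27.1, 36.4 and 32.3 CPM in si-hnrnpa2b1 libraries, against 39.5, 44.9 and 39.6 CPM in NC libraries (log2 -0.37 ± 0.10, edgeR adjusted p = 0.035). It was lost without si-hnrnpa2b1 replicate 1, si-hnrnpa2b1 replicate 3, NC replicate 1 or NC replicate 2 (edgeR adjusted p = 0.15, 0.092, 0.060 and 0.10). Tsku, a secreted leucine-rich protein that binds BMPs, had 152, 144 and 144 CPM in si-hnrnpa2b1 libraries, against 129, 138 and 126 CPM in NC libraries and did not pass (edgeR adjusted p = 0.084). By limma on log2(FPKM + 1) without a filter 0 of the components rose or fell.

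Genes known as transcriptional targets of TGF-beta or BMP signals moved in both directions. Of 35 listed targets 28 were tested, 4 rose, 2 fell and 22 did not pass, 21.4% beside 5.30% of all tested genes, with a median log2 fold change of 0.00. Loxl2, a lysyl oxidase that crosslinks collagen, had 281, 330 and 307 CPM in si-hnrnpa2b1 libraries, against 240, 237 and 222 CPM in NC libraries (log2 0.39 ± 0.06, edgeR adjusted p = 5.6e-04). Tagln, an actin-binding protein of contractile cells, had 111, 107 and 117 CPM in si-hnrnpa2b1 libraries, against 88.6, 73.7 and 83.7 CPM in NC libraries (log2 0.44 ± 0.07, edgeR adjusted p = 8.4e-04). Its model overlaps that of Sidt2, which held 7446 counts beside 8452 for Tagln and gave 0.08 ± 0.11. Smooth muscle actin, Acta2, had 171, 164 and 177 CPM in si-hnrnpa2b1 libraries, against 135, 145 and 146 CPM in NC libraries (log2 0.27 ± 0.05). Ctgf, a matricellular protein, had 161, 183 and 165 CPM in si-hnrnpa2b1 libraries, against 148, 140 and 141 CPM in NC libraries (log2 0.25 ± 0.06, edgeR adjusted p = 0.015). The Ctgf call was lost without si-hnrnpa2b1 replicate 2 (edgeR adjusted p = 0.093) and by limma on FPKM (adjusted p = 0.096 to 0.16).

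The falls among targets were those of Adam12 and Lox. Adam12, a membrane metalloprotease, had 90.2, 106 and 97.6 CPM in si-hnrnpa2b1 libraries, against 117, 116 and 117 CPM in NC libraries (log2 -0.25 ± 0.06, edgeR adjusted p = 0.023). Without si-hnrnpa2b1 replicate 1, si-hnrnpa2b1 replicate 3, NC replicate 1 or NC replicate 3 that call was lost (edgeR adjusted p = 0.11, 0.088, 0.070 and 0.057). The lysyl oxidase Lox had 5870, 5875 and 5756 CPM in si-hnrnpa2b1 libraries, against 6409, 6682 and 6415 CPM in NC libraries and lay at the threshold (log2 -0.16 ± 0.04, edgeR adjusted p = 0.04996). Lox passed in 4 of 16 alternatives. Its call was lost without si-hnrnpa2b1 replicate 2 or 3 or any NC library (edgeR adjusted p = 0.13, 0.21, 0.093, 0.087 and 0.12). The same held with relative log expression or upper-quartile scaling, or at least 1 CPM in 3 libraries (edgeR adjusted p = 0.053, 0.053 and 0.052). With the replicate block (edgeR adjusted p = 0.13) and by limma on FPKM (adjusted p = 0.064 to 0.15) it was lost too. Fibronectin, Fn1, stood just outside the threshold on the other side of 0 (log2 0.22 ± 0.06, edgeR adjusted p = 0.05001). It passed in 6 of 16 alternatives: by DESeq2 (adjusted p = 0.0027), with upper-quartile scaling, library totals alone or no filter on low counts (edgeR adjusted p = 0.046, 0.039 and 0.011), and without si-hnrnpa2b1 replicate 1 or NC replicate 2 (edgeR adjusted p = 0.031 and 0.002). Pmepa1 and Ldlrad4, which are induced by TGF-beta and limit its signal, gave -0.19 ± 0.06 and -0.23 ± 0.08 (edgeR adjusted p = 0.10 and 0.14). Bambi, Ski and Tgif1, listed both as components and as targets, gave 0.10 ± 0.11, 0.01 ± 0.05 and -0.04 ± 0.07 (edgeR adjusted p = 0.72, 0.96 and 0.85). By limma on log2(FPKM + 1) without a filter 0 targets rose or fell.

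**Figure D4:**
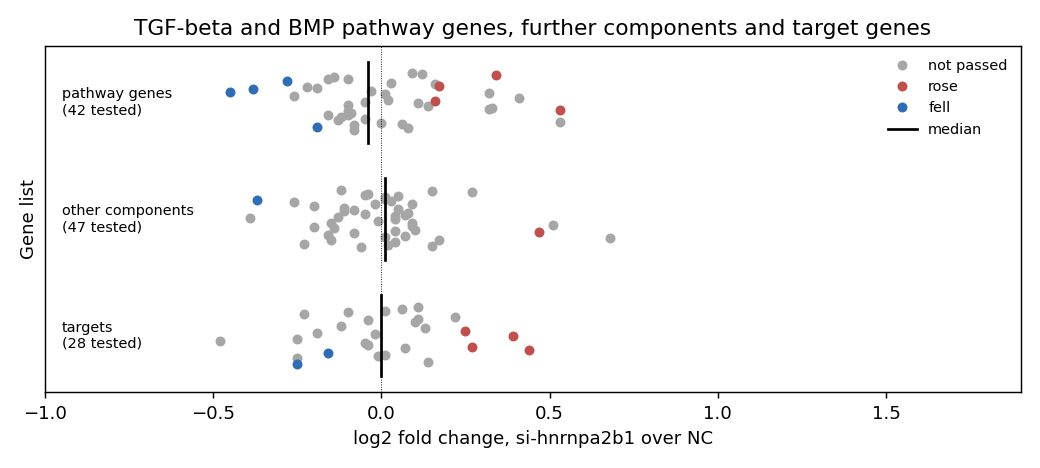
Log2 fold change of si-hnrnpa2b1 over NC (horizontal axis) for the tested pathway genes, further components and transcriptional targets; each point is a gene, placed vertically only to separate points, and black lines are medians (-0.04, 0.01 and 0.00). Red points rose and blue points fell.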

How the data were processed

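The authors deposited a table with a count and an FPKM value per rat gene and library. HISAT2 2.0.4, StringTie 1.3.0, edgeR and the build Rnor_6.0 are named without role or order, per the submitters' processing notes. The deposited counts are raw whole numbers, per the file headers and the values; the number of per-sample columns not used is 0. The FPKM values deposited by the authors equal the count over a gene length and the library total to within 0.0054%. Annotation release, strand setting and the handling of reads shared by genes are not stated in the labels or headers.

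Groups and replicate numbers come from the sample titles. Counts were fitted for all genes with edgeR 4.0.16 in R 4.3.3: filterByExpr defaults (minimum count 10, total 15), TMM factors of 0.9887 to 1.008, a two-sided quasi-likelihood F-test without covariates, and Benjamini-Hochberg adjustment over 12261 genes. The common biological coefficient of variation was 0.0638. SE is the size of the log2 fold change over the square root of F. The procedure was tested on simulated data. No pair of replicates agreed within sampling noise (chi-square per degree of freedom 2.91 to 6.00). Pairs with si-hnrnpa2b1 replicate 1 or NC replicate 2 gave 4.98 to 6.00, and the other pairs 2.91 and 3.38. These libraries thus stood further from their replicates across the table, not only in single genes.

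Alternatives were DESeq2 1.42.0, other scalings and filters, limma 3.58.1 on log2 FPKM with pseudocounts of 1 and 0.1 where the mean FPKM reached 0.5 or, with a pseudocount of 1, without that filter, a replicate block, and leaving out each library. The genes, lists and the naming rule were chosen with earlier results of these data known. By that rule, values per library are given for genes past the threshold, for those with adjusted p under 0.2 and for the most abundant of each role, and for up to 4 genes of each further list plus any past the threshold. Acvr1, Tgfbr1, Tgfb2, Inhba, Smad2, Fst, Fn1, Pmepa1, Ldlrad4, Bambi, Ski and Tgif1 were added after their values were seen. Of 80 further components 77 matched a symbol; 1 more that had been listed is not reported here and is left out of the counts. Promoters were matched to RefSeq by symbol.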

Additional observations from a re-analysis of the deposited data

How the results depend on the processing

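No fold change of a tested pathway gene was both called and opposite in sign under any alternative. The count of all changed genes, 650, was 308, 293 and 119 by limma on log2(FPKM + 1), log2(FPKM + 0.1) and log2(FPKM + 1) without a filter, 481 with the replicate block, and 379 to 592 leaving out 1 library. Of the pathway genes, 4 rose and 4 fell; 1, 1 and 0 rose by those limma fits and 1 with the replicate block, 2 fell by limma without a filter, and leaving out 1 library 1 to 4 rose and 3 to 4 fell. Of further components 1 rose and 1 fell; by the limma fits 1, 1 and 0 rose and 0 fell, and leaving out 1 library 1 to 2 rose and 0 to 1 fell. Of targets 4 rose and 2 fell; 6 rose by DESeq2, 5 with upper-quartile scaling, library totals alone or no filter on low counts, and 0 rose by limma without a filter, 0 fell by any limma fit, 1 fell by relative log expression or upper-quartile scaling, with at least 1 CPM in 3 libraries and with the replicate block, and leaving out 1 library 3 to 5 rose and 0 to 1 fell. Acvr1b passed in every setting, Ltbp2 and Bmp4 in all except limma on log2(FPKM + 1) without a filter (adjusted p = 0.066 and 0.098); the causes of the lost calls were not tested, other than that leaving out a library leaves fewer samples. Same-numbered libraries correlated at 0.0571, -0.0039 and 0.0589 in their deviations from the group means, so the replicate numbers were not taken as pairs; with the block, Fstl1, Nog and Smurf2 did not pass. Counts limit Grem1, Smad9, Bmp3, Acvrl1 and Acvr2b, which were too low to test.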
